A study of Mus musculus with 3 samples.

Results

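Fos, Fosl2 and Junb encode subunits of AP-1, a family of dimeric basic leucine zipper transcription factors, and are the 3 genes described here. They were taken by name, each with a surrounding stretch of the mouse genome build mm9: chr12:86795000-86840000 for Fos, chr5:32415000-32480000 for Fosl2 and chr8:87480000-87520000 for Junb. These stretches held 9 of the 10971 H3K4me3 regions with at least 50 reads in the series and 12 of its 27061 phospho-STAT3 sites. The gene starts came with the stretches as approximate positions rounded to 100 bp (86814800 for Fos, 32438800 for Fosl2 and 87502600 for Junb, which runs on the minus strand), not from an annotation of that build.

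FOS and JUNB are products of immediate early genes, switched on within minutes by growth factors and cytokines. A FOS-family protein binds DNA as a dimer, typically with a JUN-family protein. STAT3 is phosphorylated after IL-6 binds its receptor and moves to DNA. The Fos promoter is known for a sis-inducible element, and the mouse Junb promoter for an IL-6 response element, both of them bound by STAT factors. In Th17 cells, the IL-17-producing helper T cells, JUNB pairs with BATF at Th17 genes, and FOSL2 is known to limit the conversion of Th17 cells to other T cell states. H3K4me3 is a histone mark of active and poised gene starts.

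STAT3-deficient cells had the genotype Stat3fl/fl FoxP3-GFP, CD4-Cre, in which Cre under Cd4 control deletes the floxed gene in T cells. Wild-type cells were Stat3fl/fl FoxP3-GFP without Cre, so the floxed allele and the FoxP3-GFP reporter were shared by all samples. Naive CD4+CD44-CD62L+ T cells were kept for 72 h on anti-CD3 and anti-CD28 with IL-6 (10 ng/ml), TGF-b (2.5 ng/ml) and antibodies that block IL-2, IL-4 and IFN-g. A further hour of IL-6 (10 ng/ml) preceded chromatin immunoprecipitation and sequencing (ChIP-seq). The libraries were STAT3-deficient H3K4me3 (12075963 reads), wild-type H3K4me3 (12281399 reads) and wild-type phospho-STAT3 (Ser727, 10127075 reads), 1 of each. No difference therefore has a replicate check, no test between genotypes was possible, and intervals cover counting error only. The number of animals per library is not given in the sources used here, and no RNA was measured, so the Th17 label was not checked by markers. To look for a stretch lost in STAT3-deficient cells, 101288 gaps of over 2 kb between neighbouring STAT3-deficient H3K4me3 reads were ranked. The ranking used the smaller of the counts in both wild-type libraries, then the H3K4me3 and phospho-STAT3 counts. The first gap was on chromosome 11 (100753923 to 100757603), the chromosome that holds Stat3 in the GRCm38.p6 gene table, but Stat3 was not placed on mm9, so whether the gap lies in it was not determined. It held 0 STAT3-deficient H3K4me3 reads (a count of 0 allows up to 3), against 27 wild-type H3K4me3 and 74 wild-type phospho-STAT3 reads. It was picked for being empty, and tied on the smaller count with a gap on chromosome 6 (27 and 27 reads). The search therefore does not check the genotype label.

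The sequences just before the Fos and Junb starts are shown because the phospho-STAT3 library peaked near both starts. They are the 250 bases before the RefSeq start on GRCm38.p6 (chromosome 12 plus strand for Fos, chromosome 8 minus strand for Junb), written 5′ to 3′ with matched motifs in capitals.
Fos: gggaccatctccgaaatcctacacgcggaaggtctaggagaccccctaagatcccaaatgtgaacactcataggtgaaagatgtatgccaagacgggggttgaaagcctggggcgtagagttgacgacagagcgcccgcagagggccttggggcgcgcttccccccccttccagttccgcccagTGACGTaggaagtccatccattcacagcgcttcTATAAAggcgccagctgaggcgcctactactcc
Junb: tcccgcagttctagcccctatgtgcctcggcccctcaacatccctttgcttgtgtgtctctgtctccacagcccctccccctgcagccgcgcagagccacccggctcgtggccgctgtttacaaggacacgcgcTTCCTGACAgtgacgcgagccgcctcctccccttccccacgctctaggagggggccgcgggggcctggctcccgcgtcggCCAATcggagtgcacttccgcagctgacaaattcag
In Fos the capitals mark TGACGT, the first letters of the cyclic AMP response element, from 66 to 61 bases before the start, and a TATAAA box from 33 to 28 bases before it. In Junb they mark TTCCTGACA, a match to TTCCNGNNA that keeps one arm of the STAT palindrome, from 116 to 108 bases before the start, and a CCAAT box from 36 to 32 bases before it. These 4 motifs were chosen after the sequences had been read. The STAT palindromes TTCNNNGAA and TTCCNGGAA (every match to the second is also one to the first), the AP-1 motif TGANTCA and the full element TGACGTCA had 0 matches in the Fos, Fosl2 and Junb sequences on either strand, and Fosl2 also had 0 matches to the other motifs. Among the 32851 promoters of the same table and length, 7.02% held TTCNNNGAA, 0.913% TTCCNGGAA, 6.75% TGANTCA, 1.55% TGACGTCA, 15.1% TTCCNGNNA, 6.47% TGACGT, 33.8% CCAAT and 12.4% TATAAA on either strand. Any TGACGTCA also counts as TGACGT. The highest Fos window of phospho-STAT3, centred 300 bp upstream, lies for the most part beyond the 250 bases shown, so the search did not cover that peak. A match is a run of letters and not a shown binding site, and the letters were not aligned to the reads, which lie on another build.

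The H3K4me3 libraries ask whether the mark at the AP-1 gene starts differed without STAT3. In the 2 kb on either side of each start it did not differ detectably at this depth, while on the scale set by the marked regions the wider Fosl2 start region, the downstream side of Junb and the sum over the 3 genes, given further on, had intervals below 0. Within 2 kb on either side of the Fos start there were 116 STAT3-deficient and 117 wild-type H3K4me3 reads. Around the Fosl2 start there were 168 STAT3-deficient and 160 wild-type reads, and around the Junb start 189 STAT3-deficient and 186 wild-type reads. In all 3 windows the counts of both genotypes were close to equal, as were the library totals.

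Regions with at least 50 reads in both H3K4me3 libraries together are called marked, and the main scale puts the median log2 ratio of the marked regions at 0. On this scale the log2 ratio of STAT3-deficient over wild-type H3K4me3 was -0.31 at Fos (95% interval -0.69 to 0.07), -0.23 at Fosl2 (-0.55 to 0.10) and -0.27 at Junb (-0.57 to 0.03). Each of these intervals included 0, and each left out a 2-fold difference in either direction. The Junb interval lay below 0 when the scaling regions were called on the STAT3-deficient library alone (-0.34, -0.64 to -0.045), and the Fosl2 interval with 5 kb on either side (-0.36, -0.59 to -0.12). The bounds nearest to a 2-fold loss were 1.62-fold lower in STAT3-deficient cells at Fos, 1.46-fold at Fosl2 and 1.49-fold at Junb. Scaled by library totals instead, which moves all ratios up by 0.32 log2 units, the signs turned: 0.012 at Fos (-0.37 to 0.39), 0.095 at Fosl2 (-0.23 to 0.42) and 0.047 at Junb (-0.25 to 0.35). In these bulk cultures, fewer cells that carry the mark and less mark per cell cannot be told apart.

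Summed over the 3 windows, 473 STAT3-deficient and 463 wild-type reads gave a log2 ratio of -0.27 (-0.45 to -0.077) on the scale of the marked regions. The summed ratio was 0.055 (-0.13 to 0.24) when scaled by library totals, so its interval lay below 0 on one scale and around 0 on the other. The genes are not replicates, since all reads come from the same pair of libraries. The interval of the sum covers counting error only, not the choice of scale. The mark was not even around the starts. In the 2 kb downstream, the Junb window held 126 STAT3-deficient and 138 wild-type reads, a log2 ratio of -0.43 (-0.79 to -0.07). Scaling by library totals moves ratios up by 0.32 log2 units, which would bring 0 into this interval. The 2 kb upstream of Junb held 62 STAT3-deficient and 48 wild-type reads, 0.07 (-0.49 to 0.65). Fosl2 had 110 STAT3-deficient and 116 wild-type reads downstream, -0.37 (-0.76 to 0.02), and 58 and 44 upstream, 0.10 (-0.49 to 0.70). Fos had 66 and 69 downstream, -0.36 (-0.87 to 0.15), and 50 and 48 upstream, -0.24 (-0.84 to 0.36). At all 3 genes the downstream side carried more of the mark than the upstream side in both genotypes, and upstream and downstream intervals overlapped at each gene.

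**Figure D1:**
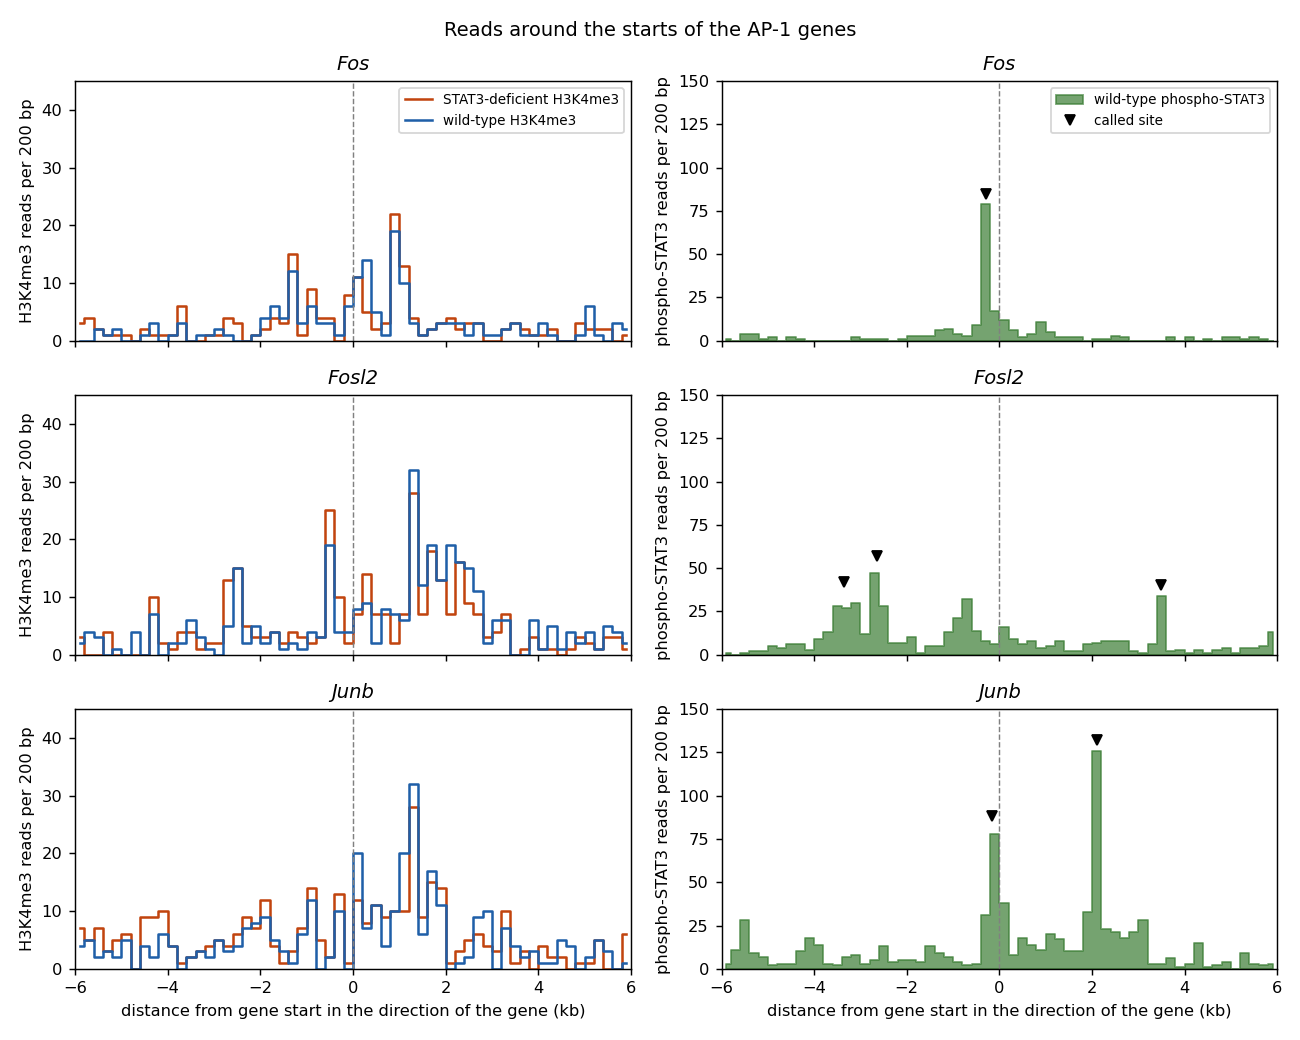
Reads per 200 bp against distance from the gene start in kb, for Fos, Fosl2 and Junb from top to bottom. The left panels show STAT3-deficient and wild-type H3K4me3, whose main peaks stand at like distances, and the right panels show wild-type phospho-STAT3 with called sites as triangles, including those 300 bp upstream of Fos and 150 bp upstream of Junb.

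Each start lay in a called H3K4me3 region, and the regions were wide. The Fos region (86813400 to 86815999) spanned 2600 bp, the Fosl2 region (32438200 to 32442199) 4000 bp and the Junb region (87499200 to 87504999) 5800 bp, against a median of 1200 bp over all marked regions. Their widths stood at percentiles 93.1, 98.2 and 99.5 of the marked regions in that order. Per length the mark was below the middle of all marked regions: 73.5 reads per kb in both libraries together at Fos, 104.5 at Fosl2 and 80.3 at Junb, against a median of 110. By reads per kb the regions stood at percentiles 13.6 (Fos), 44.6 (Fosl2) and 19.2 (Junb), and by total reads at 72.8, 97.3 and 98.1. The mark at the AP-1 starts was thus broad, with a low density at Fos and Junb and one near the middle at Fosl2.

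The Fos region held 97 STAT3-deficient and 94 wild-type reads, a log2 ratio of -0.25 (-0.68 to 0.17). The Junb region held 236 STAT3-deficient and 230 wild-type reads, -0.26 (-0.53 to 0.01). Both of these intervals included 0, as did those of 88.5% of all marked regions. The Fosl2 region held 200 STAT3-deficient and 218 wild-type reads, -0.42 (-0.70 to -0.14), and was the one start region whose interval lay below 0, as in 5.69% of all marked regions. By library totals the Fosl2 ratio was -0.10 (-0.38 to 0.18). The 500 bp from 2000 to 2500 bp downstream of the Fosl2 start held 30 STAT3-deficient and 48 wild-type reads, a stretch picked after its values were seen.

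Of the 3 start regions, 0 passed the size rule for a differing region (at least 2-fold with an interval that excludes no change), as against 2.17% of the 10971 marked regions, 1.01% higher and 1.16% lower in STAT3-deficient cells. By library totals that split was 319 higher and 54 lower regions, against 111 higher and 127 lower on the scale by marked regions. The ratios of the start regions stood at percentiles 21.1 (Fos), 10.8 (Fosl2) and 20.4 (Junb), all below the lower quartile of -0.21. For comparison, the 3404 marked regions with 73.5 to 104.5 reads per kb, the range of the 3 AP-1 starts, had a median log2 ratio of -0.02 and quartiles of -0.24 and 0.22.

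**Figure D2:**
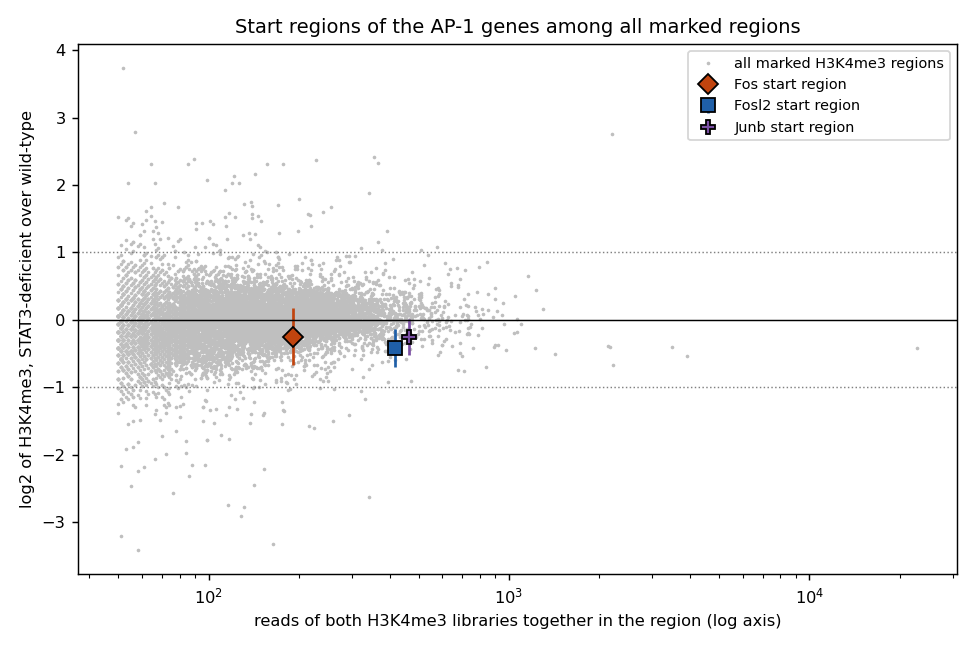
Log2 ratio of STAT3-deficient over wild-type H3K4me3 against the reads of both libraries together (log axis) for 10971 marked regions in grey, with the start regions of Fos, Fosl2 and Junb in colour and their exact 95% intervals as bars. Dotted lines mark a 2-fold difference, and all 3 start regions lie between 0 and the lower line.

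The other 6 marked regions of the 3 stretches were away from the AP-1 starts, and 0 of them passed the size rule. In the Fos stretch, a region 12000 to 14399 bp downstream held 104 STAT3-deficient and 106 wild-type reads, -0.32 (-0.73 to 0.08), and one about 18 kb upstream (86796200 to 86796799) held 56 and 30 reads, 0.60 (-0.06 to 1.30). Junb lies between Prdx2 and Hook2 in the GRCm38.p6 gene order, and the other regions of its stretch were not placed on genes here. The region from 87489000 to 87489999 held 105 STAT3-deficient and 58 wild-type reads, 0.56 (0.08 to 1.05), an interval above 0 as in 5.83% of all marked regions. The region from 87492400 to 87494799 held 226 STAT3-deficient and 158 wild-type reads, 0.22 (-0.08 to 0.52). These neighbours on the downstream side of Junb had ratios above 0, while the Junb start region had one below 0, and on the scale by library totals the neighbours stood at 0.88 (0.40 to 1.37) and 0.54 (0.24 to 0.84) and the Junb start region at 0.061 (-0.21 to 0.33). On the upstream side, the region from 87509000 to 87510999 held 57 STAT3-deficient and 55 wild-type reads, -0.24 (-0.80 to 0.32), and that from 87514400 to 87515599 held 40 and 27, 0.27 (-0.47 to 1.03).

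The phospho-STAT3 library asks where its reads gathered at these genes in wild-type cells. With the main settings, sites were called close to the starts of Fos and Junb. At Fosl2 they were called in a group outside the 2 kb around the start, while a window 700 bp upstream was called under other settings only. Without an input library, such sites are places of dense reads and not shown binding. Of the 12 sites in the 3 stretches, 9 were strong, meaning that their excess of reads over the local expectation was at least 26.1, the top 25% of all sites. Within 5 kb of the starts, phospho-STAT3 reads were 4.28-fold over the genome mean at Fos (95% interval 3.71 to 4.91), 10.5-fold at Fosl2 (9.62 to 11.5) and 14.8-fold at Junb (13.7 to 15.9). Over these 10 kb Junb had the densest signal and Fos the sparsest, with intervals that did not overlap. H3K4me3 reads there were also lowest at Fos. They were 2.87-fold at Fos, 5.13-fold at Fosl2 and 5.46-fold at Junb in STAT3-deficient cells, and 2.67-, 5.27- and 4.99-fold in wild-type cells. Whether local read density shared by the libraries adds to the phospho-STAT3 order was not tested. Nearer to the starts the order of Fos and Fosl2 was not the same: within 1 kb there were 147 at Fos, 124 at Fosl2 and 207 at Junb, and within 2 kb 180, 181 and 335 in the same order.

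Fos had 1 strong site, centred 300 bp upstream of its start (86814300 to 86814749). Its highest 200 bp window held 79 reads, 40 on the plus and 39 on the minus strand, 19.2-fold over a local expectation of 4.12 (95% interval 15.2 to 23.9). It ranked 407 of 27061 sites by excess. This was a single sharp peak: the 500 bp before the start held 101 phospho-STAT3 reads, against 11 in the 500 bp before that and 20 in the 500 bp after the start. The other Fos sites lay 14100 and 23100 bp downstream with 18 and 19 reads, below the median of 21 reads over all sites.

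Junb had 6 sites, 5 of them strong. The largest (87500250 to 87500749) was centred 2100 bp downstream of the start, at the far end of the interval given for the gene, and held 126 reads, 9.50-fold over local (7.92 to 11.3), rank 107. Another (87502450 to 87502949), 150 bp upstream of the start, held 82 reads, 5.77-fold over local (4.59 to 7.17), rank 548. Over the genome mean this window stood at 85.6-fold and that of the Fos site at 82.4-fold. Their local expectations were 14.2 at Junb and 4.12 at Fos. One more (87509150 to 87510099), 7250 bp upstream, held 100 reads, 8.13-fold over local (6.61 to 9.89), rank 253. No more than 2.02% of all sites ranked above any of these Junb sites. Further sites 11300 and 11800 bp upstream held 41 and 44 reads and were strong, and the site 12600 bp downstream held 26 reads and was not.

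Fosl2 had 3 sites, all strong and all lower than the leading sites of Fos and Junb. The largest (32435950 to 32436349), 2650 bp upstream of the start, held 51 reads, 5.77-fold over local (4.30 to 7.59), rank 1983. Beside it, 3350 bp upstream (32435250 to 32435549), 36 reads gave 4.18-fold (2.93 to 5.78), and 3500 bp downstream (32442150 to 32442449) 34 reads gave 5.12-fold (3.55 to 7.16). Nearer to the Fosl2 start, the highest window within 2 kb was 700 bp upstream with 32 reads, 3.21-fold over local and 33.4-fold over the genome mean, and was not called. It was called at a Poisson p under 1e-06, with reads not shifted, and against the genome-wide density alone. Since the local density includes the sites themselves, crowded sites raise the expectation against which each is judged.

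**Figure D3:**
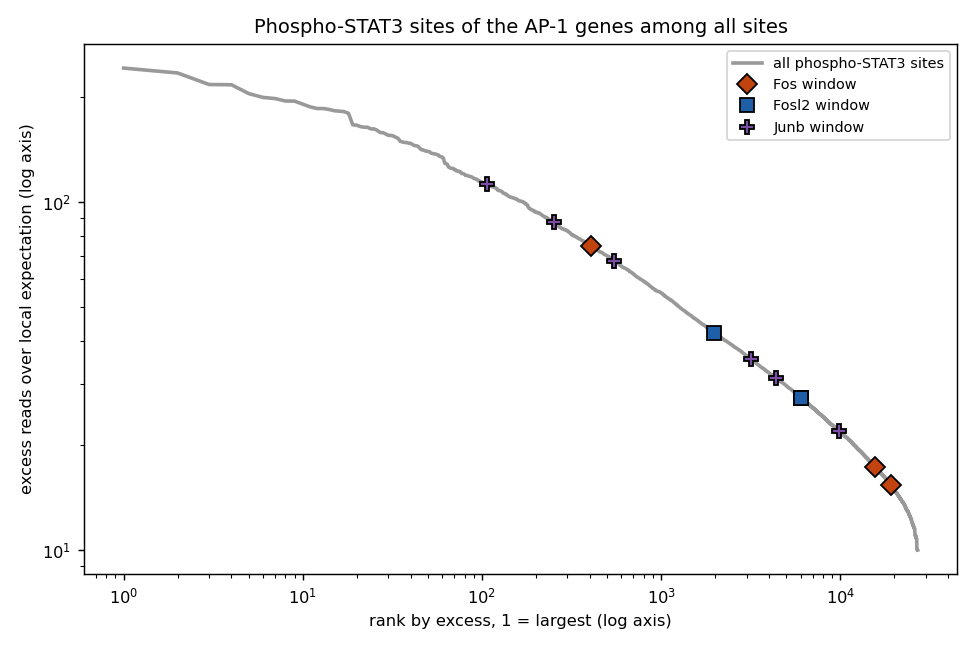
Excess of reads over the local expectation against rank for all 27061 phospho-STAT3 sites (grey line, both axes log), with the 12 sites of the Fos, Fosl2 and Junb stretches as symbols. The leading Junb site stands at rank 107 and that of Fos at 407, and a pair of Fosl2 sites (ranks 6060 and 6068) falls on one symbol.

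Seen from the H3K4me3 regions, 2 of the 3 start regions, those of Fos and Junb, contained a site and in both cases a strong one, against 47.2% and 11.4% of all marked regions. The Junb start region had 6 sites within 10 kb of its edges, a number that 0.191% of marked regions reached. The Fosl2 start region had 3, reached by 9.67% of marked regions, and the Fos start region 1, reached by 74.4%. The Junb region is also wide, which gives it more room for sites than the median region. With the same caller run on the H3K4me3 libraries, 0 of the 12 sites were found in both of them, against 12.9% of all sites. The Junb site 12600 bp downstream was the single one called in 1 of them, the STAT3-deficient library, against 18.6% of all sites called in at least 1. No input library and no phospho-STAT3 library of STAT3-deficient cells was analysed here.

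Last, the libraries together ask how H3K4me3 stood at the phospho-STAT3 sites. At all 9 strong sites the interval of the H3K4me3 ratio within 1 kb included 0 on both scales, as it did on the main scale at 89.2% of the 6770 strong sites of the series. It lay below 0 under other settings at the Fosl2 site 3500 bp downstream, with reads not shifted (-0.90, -1.63 to -0.19), and at the Junb site 11300 bp upstream, within 500 bp (-1.40, -2.93 to -0.014). The ratios ran from -0.72 (-1.47 to 0.01) at the Fosl2 site 3500 bp downstream, with 29 STAT3-deficient and 39 wild-type reads, to 0.05 (-0.57 to 0.67) at the Fosl2 site 3350 bp upstream, with 52 and 41. At the Fos site 300 bp upstream there were 48 STAT3-deficient and 56 wild-type reads, -0.52 (-1.11 to 0.06). At the Junb site 150 bp upstream there were 80 and 72, -0.14 (-0.62 to 0.34), and at the one 2100 bp downstream 94 and 97, -0.34 (-0.77 to 0.08). With so few reads, the intervals reached 2.15-fold lower in STAT3-deficient cells at the Fos site and 2.77-fold lower at the downstream Fosl2 site, so losses of 2-fold and somewhat more are not left out there.

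**Figure D4:**
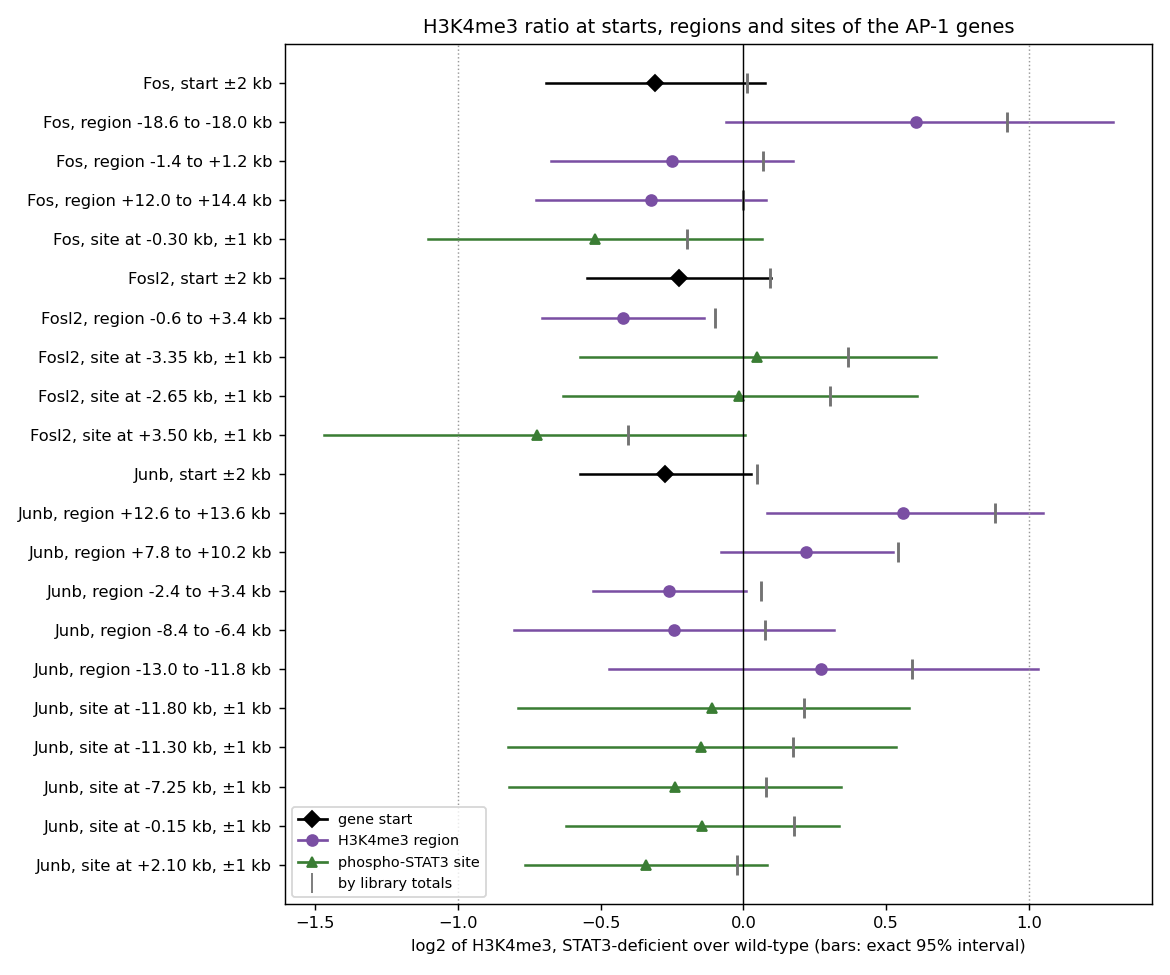
Log2 ratio of STAT3-deficient over wild-type H3K4me3 with exact 95% intervals at gene starts (2 kb on either side), marked regions and strong sites (1 kb on either side) of Fos, Fosl2 and Junb; grey ticks give the ratio by library totals and dotted lines a 2-fold difference. The diamonds of the 3 starts lie at -0.31, -0.23 and -0.27, and the ticks of the same rows beside 0.

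At the leading sites of Fos and Junb the mark was thin at the phospho-STAT3 summit, and at the leading Fosl2 site it was not. The 200 bp at the summit of the Fos site held 0 STAT3-deficient and 1 wild-type H3K4me3 reads, against means of 4.80 and 5.60 per 200 bp within 1 kb. At the Junb site 2100 bp downstream the summit held 0 reads in either library, against means of 9.40 in STAT3-deficient and 9.70 in wild-type cells. At the Junb site 150 bp upstream it held 4 STAT3-deficient and 1 wild-type reads, against means of 8.0 and 7.20. In these 200 bp windows the counts of both genotypes were below the means at all 3 sites. Over the central 400 bp this did not hold at the Junb site 150 bp upstream in STAT3-deficient cells. There the centre held 16 STAT3-deficient reads against 14 per 400 bp in the flanks, and 10 wild-type reads against 15. At the Fos site and the Junb site 2100 bp downstream the central 400 bp was below the flanks in both genotypes.

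Over all 9 strong phospho-STAT3 sites of the 3 stretches, the summits held 24 STAT3-deficient reads, 49.1% of the surrounding mean (95% interval 31.5 to 73.1). In wild-type cells they held 20 reads, 42.5% (26.0 to 65.6). Over the 5 of these 9 sites inside marked regions, the summits held 9 STAT3-deficient reads, 28.5% of the surrounding mean (95% interval 13.0 to 54.1). The wild-type reads there were 6, 19.2% (7.06 to 41.9). These intervals cover the counting error of the summit reads and not the spread among sites, and neighbouring sites share part of their surroundings. Of these 5 sites, 4 had under 50% of the surrounding mean in both libraries together, against 28.1% of the 1335 strong sites inside marked regions of the whole series. Summed over those 1335 sites, the summits held 119.7% of the mean in STAT3-deficient cells and 119.3% in wild-type cells, though the median site had 93.6% of its mean in both libraries together and 52.8% of the sites were under 100%. Outside or inside marked regions, 7 of the 9 strong sites of the 3 stretches were under 50%, against 22.2% of the 6770 strong sites of the series. One exception was the Junb site 11800 bp upstream, with 3 reads in either library against means of 4.10 in STAT3-deficient and 3.60 in wild-type cells. The other was the Fosl2 site 2650 bp upstream, where the summit held 14 STAT3-deficient and 11 wild-type reads, above means of 5.10 and 4.20. It lies in a small H3K4me3 region with 28 STAT3-deficient and 20 wild-type reads, just short of the 50 reads that define a marked one.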

How the data were processed

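Reads were on build mm9 and SICER, an island caller, is named, per the submitters' processing notes; aligner and versions: not given in the sources used here. The deposited files hold 1 aligned read of 25 bp per line, with 0 duplicate positions per strand, and no count per region. Libraries had 18 PCR cycles and fragments of about 250 bp, per the labels' protocols.

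Reads were moved 75 bp towards the fragment centre. H3K4me3 regions came from both H3K4me3 libraries pooled (200 bp windows of 12 or more reads, the number for a Poisson p of 1e-05 when a share of 0.8 of the genome is mappable, joined within 600 bp, at least 2 windows). Sites were 200 bp windows in 50 bp steps with at least 10 reads, both strands, and Poisson p under 1e-08 against the larger of genome-wide and 10 kb local density. Ratio intervals are exact Clopper-Pearson, those of counts exact Poisson, all at 95%; reads without molecular identifiers need not be independent molecules. Named sites were the leading site of each stretch, those within 2 kb of a start and all strong ones. Members and settings were chosen with earlier results of these data known. Other AP-1 genes were not placed on mm9 and are not analysed here, and no region was given a sequence, since no mm9 genome was used. The size rule and the site caller were run on simulated data with known answers, and the region caller was not. The simulated sites lay far apart, so that run does not cover crowded sites such as those of Junb. Python 3.11.15, numpy 2.4.6, scipy 1.17.1, pandas 2.3.3 and matplotlib 3.10.9 were used.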

Additional observations from a re-analysis of the deposited data

How the results depend on the processing

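No paired analysis was possible because each group had 1 library, and for the same reason no library could be left out. The ratios at the 3 starts ran over all planned settings from -0.38 to 0.012 at Fos, -0.36 to 0.095 at Fosl2 and -0.34 to 0.047 at Junb; above 0 was the scaling by library totals alone. That scaling moved the Junb start to 0.047, the Fosl2 start region to -0.10 and the Junb start region to 0.061. On the main scale the Fosl2 interval with a 5 kb window lay below 0 (-0.59 to -0.12), and by library totals it included 0 (-0.27 to 0.20). A window around the far end of Junb, added after seeing the data, gave -0.43 (-0.75 to -0.11). With scaling regions called on STAT3-deficient alone the Junb start stood at -0.34 (-0.64 to -0.045), and with those called on wild-type alone at -0.21 (-0.51 to 0.09). At the Junb site 11300 bp upstream the ratio was -1.40 (-2.93 to -0.014) within 500 bp, and at the Fosl2 site 3500 bp downstream -0.90 (-1.63 to -0.19) without the read shift. Against the genome-wide density alone, sites numbered 7 at Fos (2 within 2 kb of the start), 10 at Fosl2 (2) and 20 at Junb (4). Fosl2 had 1 site within 2 kb without the read shift and 1 at a Poisson p under 1e-06. Marked regions past the size rule numbered 373 by library totals (319 higher, 54 lower), 129 with regions called on wild-type alone (12 higher), 145 on STAT3-deficient alone (22 lower), 94 with at least 100 reads (52 higher, 42 lower) and 571 with at least 20 (202 higher, 369 lower), against 238. The cause was not tested, except that the last settings change which regions are counted. Depth limits the ratios at the strong sites, which rest on 29 to 94 STAT3-deficient reads.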

Other observations

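The base-match code of each read, which no comparison above used, gave the share of reads with a mismatch to the reference. In STAT3-deficient H3K4me3 it was 3.69% in the Fos stretch, 3.20% in the Fosl2 stretch and 4.28% in the Junb stretch, against 3.97% over the genome. In wild-type H3K4me3 it was 3.68%, 3.49% and 4.82% in the same order of genes, against 3.90%, and in wild-type phospho-STAT3 3.90%, 4.32% and 5.07%, against 4.58%. Every Wilson 95% interval of these 9 shares included the genome share of its library.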
